A study of Drosophila melanogaster with 4 samples.

Results

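Antimicrobial peptide genes encode small secreted proteins of the fly's innate immune response, and 10 of them are described here in thoraces of flies with or without RNAi against the muscle transcription factor MEF2. They are AttA, AttB and AttC (attacins), CecA1 and CecC (cecropins), Def (defensin), DptB (diptericin B), Dro (drosocin), Drs (drosomycin) and Mtk (metchnikowin). The genes were picked by symbol with earlier results of these data known, so the counts below are no independent check. All 10 have a row in the authors' table of 13012 genes. RNA came from dissected thoraces of mated females on a high calorie diet, 8 thoraces to a library and 10 days of age per the labels. Every fly carried Act88FGS, a GeneSwitch driver with the promoter of a flight muscle actin gene, which acts when flies are fed RU486.

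Flies of the genotype Act88FGS>UAS-MEF2RNAi also carried the RNAi transgene, and flies of the genotype Act88FGS>w1118 were the genetic control without it. Each genotype was kept with RU486 or with ethanol as the vehicle control. The 4 conditions have 1 library each, so that no difference below has a replicate check, and no test was run. The deposited values are on a log2 scale and centred gene by gene, with the mean of each gene's 4 libraries at 0. They say by how much a library lies above or below that mean on the log2 scale, and neither a level of expression nor the depth behind it can be read from them.

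The libraries differ in their common level. Over all genes, MEF2 RNAi flies had a median of -0.18 with RU486 and 0.19 without it, and w1118 flies had 0.17 and -0.18. Results are given on the deposited scale and, where it matters, after subtraction of a library's own median over the whole table, called the all-gene scale below. For Mef2, the RNAi target, the MEF2 RNAi libraries stood at -0.38 with RU486 and 0.25 without it, and the w1118 libraries at 0.22 and -0.098. On the deposited scale Mef2 was lower with RU486 in the RNAi genotype, and the median of all genes was lower as well.

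In flies, bacterial peptidoglycan and fungal cell wall components switch on antimicrobial peptide genes through 2 NF-kappaB pathways. The IMD pathway ends in the factor Relish and is the main route to attacins, cecropins, diptericins and drosocin, while the Toll pathway ends in Dif and Dorsal and is the main route to drosomycin and the Bomanin peptides. Defensin and metchnikowin take input from both. The fat body is the chief source of these peptides after systemic infection, and gut, hemocytes and other epithelia make them as well. In a thoracic sample of several tissues, more cells of a type and more RNA per cell cannot be told apart.

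All 10 genes had their highest deposited value in MEF2 RNAi flies without RU486 and their lowest in w1118 flies without RU486. That order alone is common in this table, since 49.3% of all genes were highest and 47.4% lowest in those same libraries. On average over both treatments, AttB was 2.14-fold higher in MEF2 RNAi flies than in w1118 flies, Def 2.10-fold, Dro 2.09-fold, AttA 2.03-fold and AttC 1.97-fold. Out of 13012 genes ranked by this average, these were numbers 4, 6, 7, 8 and 10.

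The average of the 2 treatments was chosen after the values were seen. The library levels nearly cancel in it, and the median of all genes was 0.0032 on the log2 scale. Differences are counted below when they reach 1.5-fold upwards or 0.65-fold downwards, limits the study used in its figures. A mean difference of at least 1.5-fold was found in 5 of the 10 genes and in 0.338% of all genes. CecA1 followed with 1.45-fold, Mtk with 1.39-fold, CecC with 1.26-fold, DptB with 1.24-fold and Drs with 1.15-fold. All 10 genes were thus higher in MEF2 RNAi flies by this measure, as were 6808 of 13012 genes. Drs, the drosomycin gene, had the smallest difference of the 10.

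**Figure D1:**
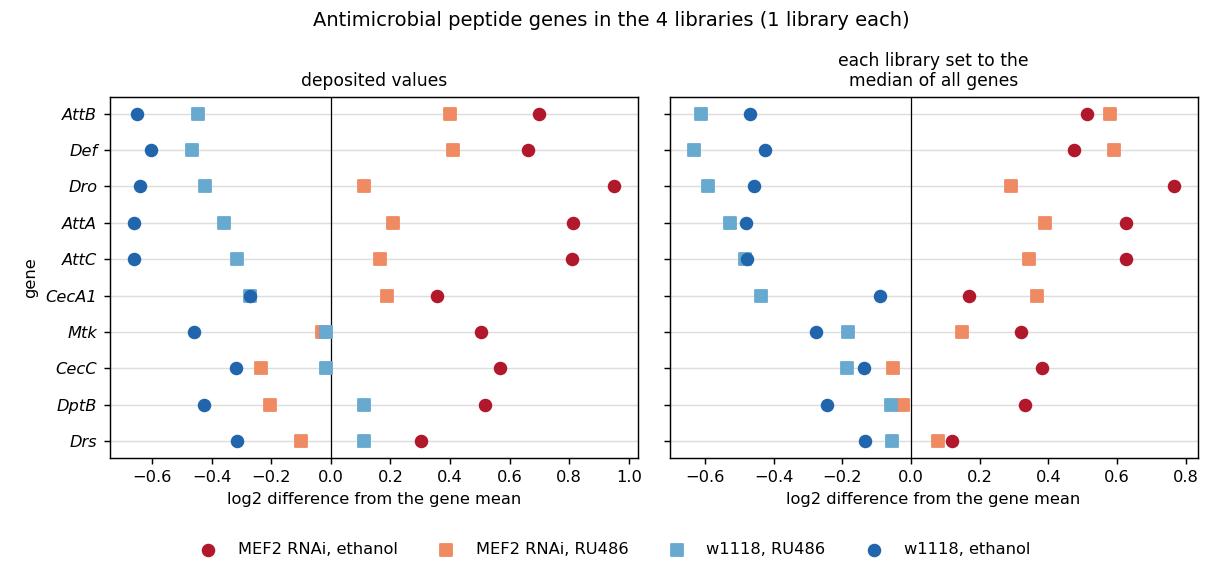
Value of each antimicrobial peptide gene in the 4 libraries, as a log2 difference from the gene's mean, as deposited (left) and on the all-gene scale (right). Red and orange points are MEF2 RNAi flies, blue points are w1118 flies, circles are ethanol and squares RU486. On the right, both MEF2 RNAi libraries lie above both w1118 libraries in 10 of 10 genes (9.45% of all genes), and on the left in 6 (3.31% of all genes).

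The attacins are glycine-rich peptides that act on Gram-negative bacteria. AttA had values of 0.81 in MEF2 RNAi flies without RU486 and 0.21 with it, and of -0.66 and -0.36 in w1118 flies. AttB had 0.70 and 0.40 in MEF2 RNAi flies and -0.65 and -0.45 in w1118 flies. For AttC the corresponding values were 0.81 and 0.17, and -0.66 and -0.32. In all 3 attacin genes both MEF2 RNAi libraries lay above both w1118 libraries, against 3.31% of all genes. As deposited, the gap between the genotypes was 0.84 for AttB with RU486, where its MEF2 RNAi libraries were 0.30 apart. For AttA (gap 0.57) and AttC (gap 0.48) the MEF2 RNAi libraries were 0.60 and 0.65 apart, more than the genotypes. On the all-gene scale this was reversed. There the RU486 differences in MEF2 RNAi flies were -0.24 for AttA and -0.28 for AttC, and the genotype gaps with RU486 were 0.92 and 0.83. AttA and AttB are near-identical neighbouring copies, and how reads that match both were counted is not stated, so that they are not 2 separate readings.

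Dro encodes drosocin, a proline-rich peptide, and lies next to AttA and AttB. Its values were 0.95 without RU486 and 0.11 with it in MEF2 RNAi flies, and -0.64 and -0.42 in w1118 flies. Def encodes an insect defensin, known for its action on Gram-positive bacteria. It had 0.66 and 0.41 in MEF2 RNAi flies, and -0.61 and -0.47 in w1118 flies. In both genes, both MEF2 RNAi libraries lay above both w1118 libraries as deposited, against 3.31% of all genes. Among all 10 genes, Dro had both the highest single value and the widest gap between the MEF2 RNAi libraries.

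The cecropins are helical peptides that break bacterial membranes. CecA1 had values of 0.35 without and 0.19 with RU486 in MEF2 RNAi flies, and both w1118 libraries stood at -0.27. Its neighbour CecC had 0.57 and -0.23 in the RNAi genotype, and -0.32 and -0.017 in w1118 flies. For CecA1 both MEF2 RNAi libraries lay above both w1118 libraries, against 3.31% of all genes. The genotypes overlapped for CecC, whose MEF2 RNAi library with RU486 lay below the w1118 library with RU486 on the deposited scale.

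DptB, Mtk and Drs showed the same overlap as CecC. DptB, a glycine-rich peptide of the diptericin family, had 0.52 and -0.20 in MEF2 RNAi flies and -0.43 and 0.11 in w1118 flies. Mtk, a proline-rich peptide active on fungi and Gram-positive bacteria, had 0.50 and -0.031, and -0.46 and -0.016. Drs, an antifungal peptide, had 0.30 and -0.10, and -0.32 and 0.11. In these 3 genes and CecC, as deposited, the flies fed RU486 did not show the higher value in MEF2 RNAi flies that the flies on ethanol showed.

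Both MEF2 RNAi libraries lay above both w1118 libraries in 6 of the 10 genes on the deposited scale (AttA, AttB, AttC, CecA1, Def and Dro), a pattern shown by 3.31% of all genes. With library medians subtracted, the 4 remaining genes joined them, giving 10 of 10 against 9.45% of all genes. The margins differed widely. On the all-gene scale the lower MEF2 RNAi library of DptB stood at -0.024 and the higher w1118 library at -0.058, so that this gene separates by very little, while Def stood at 0.47 or more in MEF2 RNAi flies and at -0.42 or less in w1118 flies.

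Without RU486, the state in which the driver is inactive by design, all 10 genes were at least 1.5-fold higher in MEF2 RNAi flies, compared with 6.00% of all genes. The difference ran from 1.54-fold for Drs and CecA1 to 3.01-fold for Dro, and its median on the log2 scale was 1.11 against 0.38 for all genes. The attacins stood at 2.78-fold (AttA), 2.77-fold (AttC) and 2.55-fold (AttB), and Def at 2.40-fold. Lower down came Mtk (1.95-fold), DptB (1.92-fold) and CecC (1.85-fold). On the all-gene scale 6 of the 10 genes passed 1.5-fold (AttA, AttB, AttC, Def, Dro and Mtk), against 0.246% of all genes, and Dro was 2.33-fold higher there. DptB at 1.49-fold lay just short of the limit.

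With RU486, the state in which the driver is active by design, the genotype difference depended on the scale. As deposited, AttB (1.80-fold) and Def (1.84-fold) were at least 1.5-fold higher in MEF2 RNAi flies, which makes 2 of 10 genes against 0.599% of all genes. AttA followed at 1.49-fold, Dro at 1.45-fold, AttC at 1.40-fold and CecA1 at 1.37-fold. Mtk was close to even at 0.990-fold, and CecC (0.861-fold), Drs (0.863-fold) and DptB (0.805-fold) were lower in MEF2 RNAi flies. Since the median of all genes was -0.36 in this comparison, these 4 genes were still above the typical gene. On the all-gene scale, AttA, AttB, AttC, CecA1, Def and Dro were 1.75- to 2.34-fold higher, 6 of 10 genes against 1.34% of all genes, and the other 4 were 1.02- to 1.26-fold higher. The plot of the genotype differences in both treatments shows AttA, AttB, AttC, Def and Dro above the medians of all genes on both axes. The highest gene of the table lies at 2.00 on the log2 axis without RU486.

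**Figure D2:**
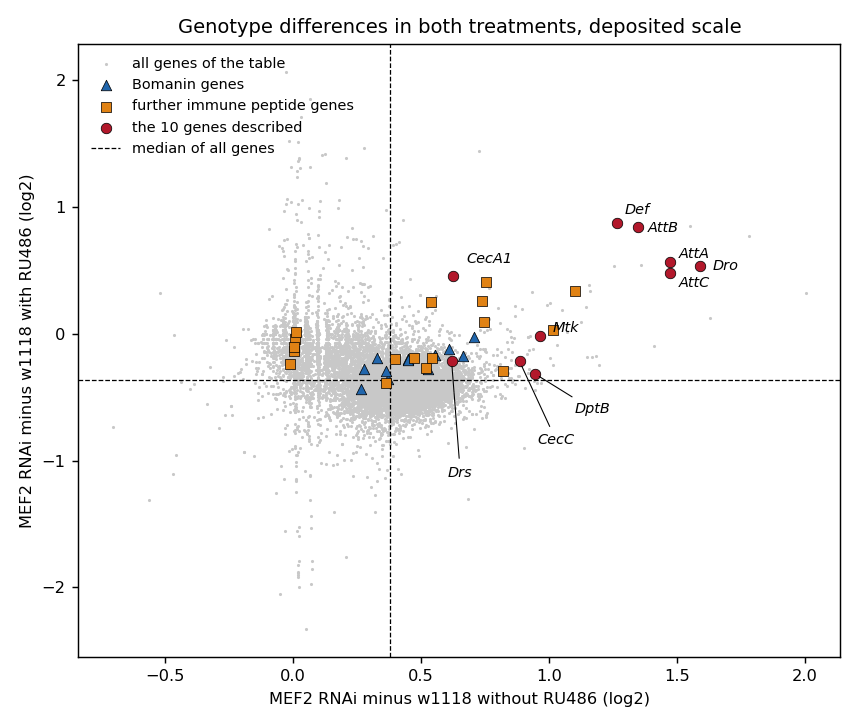
MEF2 RNAi minus w1118 without RU486 (horizontal axis, log2) against the same difference with RU486 (vertical axis, log2) for each of 13012 genes (grey), the 10 antimicrobial peptide genes (red), 17 further immune peptide genes (orange) and 12 Bomanin genes (blue). Dashed lines mark the medians of all genes, 0.38 and -0.36; AttA, AttB, AttC, Def and Dro lie between 1.27 (Def) and 1.59 (Dro) on the horizontal axis and between 0.48 (AttC) and 0.88 (Def) on the vertical axis.

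As deposited, values with RU486 were lower in MEF2 RNAi flies and higher in w1118 flies for all 10 genes. Of 13012 genes, 11564 were lower in MEF2 RNAi flies and 12113 higher in w1118 flies. In MEF2 RNAi flies Dro was at 0.559-fold of the value without RU486, CecC at 0.574-fold, DptB at 0.606-fold and AttC at 0.639-fold. These 4 of 10 genes were at or below the limit of 0.65, against 6.99% of all genes, and AttA at 0.659-fold lay just outside it. The smallest reductions were those of CecA1 (0.890-fold), Def (0.841-fold) and AttB (0.813-fold). In w1118 flies none of the 10 genes reached 1.5-fold, compared with 6.54% of all genes, and DptB was nearest at 1.45-fold while CecA1 hardly moved, with a log2 difference of 0.0007.

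The opposite directions were shared by the table as a whole, whose median log2 difference with RU486 was -0.38 in MEF2 RNAi flies and 0.36 in w1118 flies. After subtraction of the library medians, no antimicrobial peptide gene passed either limit in either genotype. For lower values in MEF2 RNAi flies the share of all genes past the limit was then 0.438%, and in w1118 flies it was 1.25% for higher and 0.192% for lower values. The RU486 differences on that scale ran from 0.720-fold for Dro to 1.15-fold for CecA1 in MEF2 RNAi flies, and from 0.785-fold for CecA1 to 1.14-fold for DptB in w1118 flies. CecA1, Def and AttB were higher with RU486 in MEF2 RNAi flies on this scale and lower as deposited, so that their direction is set by the scaling. The same holds in w1118 flies for 7 of the 10 genes, which were lower with RU486 on this scale and higher as deposited. Only DptB, Drs and Mtk stayed higher there.

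Comparing the genotypes for their RU486 difference gave a ratio at or below 0.65 in 7 of the 10 genes as deposited, near the 63.5% of all genes that had such a ratio. On the all-gene scale 0 of 10 genes and 0.453% of all genes did. DptB had the lowest ratio of the 10 genes on the all-gene scale, 0.686, and CecA1 the highest, 1.46. On that scale the median RU486 difference of the 10 genes was -0.20 in MEF2 RNAi flies and -0.049 in w1118 flies (log2), and their median genotype difference was 0.75 without RU486 and 0.82 with it. These comparisons share libraries, so that they are not separate readings.

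**Figure D3:**
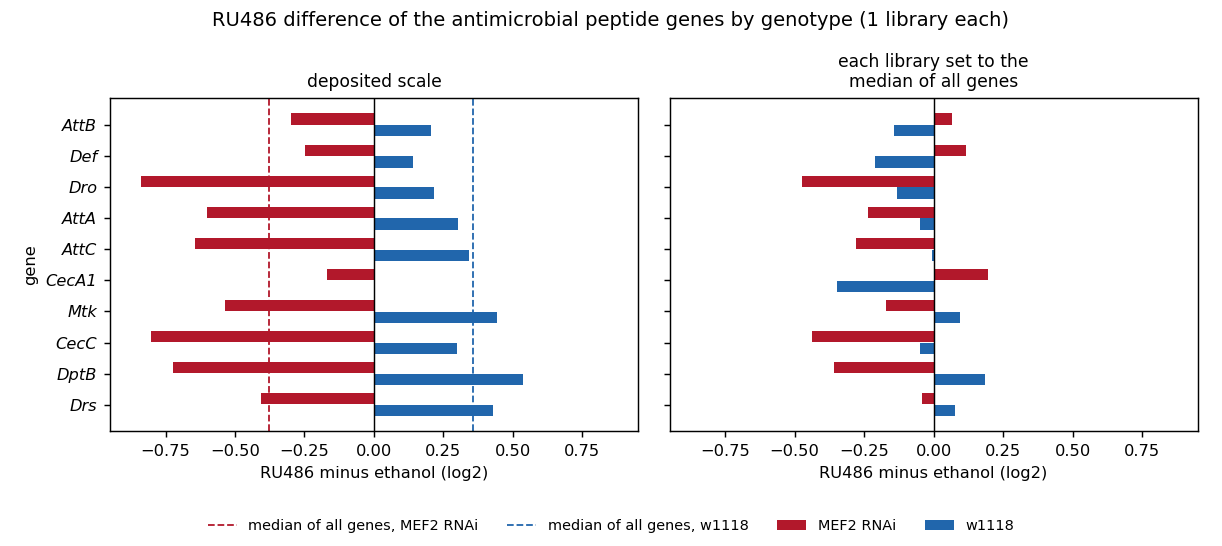
RU486 minus ethanol (log2) for each antimicrobial peptide gene in MEF2 RNAi flies (red bars) and w1118 flies (blue bars), as deposited (left, with the medians of all genes as dashed lines at -0.38 and 0.36) and on the all-gene scale (right). On the left panel red bars lie below 0 and blue bars above 0 (CecA1 in w1118 flies is at 0.0007), whereas on the right the largest difference is that of Dro in MEF2 RNAi flies, -0.47.

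The members do not come from one place in the genome. In the BDGP6 annotation of Ensembl release 115 (the authors' build is not given in the sources used here), 7 of the 10 genes lie on chromosome arm 2R, 2 on 3R and 1 on 3L. Dro (14745961 to 14746714), AttA (14747362 to 14748215) and AttB (14749223 to 14750165) form a cluster of 4.21 kb on 2R with no other annotated gene inside. AttC (13393705 to 13394667), Mtk (15408846 to 15409113), DptB (18867391 to 18867895) and Def (10054178 to 10054576) lie elsewhere on 2R. CecA1 (30210874 to 30211273) and CecC (30216484 to 30216938) share a cecropin cluster on 3R, and Drs (3369556 to 3369942) lies on 3L. The 5 genes with the largest average differences thus come from 3 separate sites on 2R. The median of all genes on 2R was 0.0047 in the same average, like the 0.0035 of all genes matched to the annotation.

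These are short genes of 1 or 2 exons, with exon lengths from 268 bases for Mtk to 900 for AttC. The 1881 genes of the table with exons of at most 900 bases had a median average difference of 0.0095, and 9 of them, 5 of which are AttA, AttB, AttC, Def and Dro, were at least 1.5-fold higher in MEF2 RNAi flies. AttC, Def, DptB and Mtk each overlap 1 other annotated gene, namely CG4744, magu, CG43109 and Stacl. The average genotype difference was 0.097 for CG4744, -0.035 for magu and -0.011 for CG43109 on the log2 scale, each far below that of AttC, Def and DptB. Stacl was not matched to a row of the table.

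Of 21 further immune peptide genes in a list drawn up with earlier results of these data known, 17 were in the table. In 6 of them, both MEF2 RNAi libraries lay above both w1118 libraries on the deposited scale, against 3.31% of all genes. They were Listericin, DptA, Drsl4, CecA2, AttD and CG45045. Listericin, which encodes an antibacterial peptide named for Listeria, had values of 0.58 without and 0.15 with RU486 in MEF2 RNAi flies, and of -0.53 and -0.20 in w1118 flies. Its average difference of 1.65-fold was the largest of the 17 and the only one to pass 1.5-fold. DptA, the neighbour and close relative of DptB, had 0.45 and 0.13, and -0.30 and -0.28. Unlike DptB, DptA did not overlap between the genotypes.

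None of the remaining copies of these families reached 1.5-fold in the average. CecA2, Drsl4 and AttD still had larger average differences than the members CecC, DptB and Drs, at 0.33, 0.32 and 0.20 (log2). CecA2, between CecA1 and CecC on 3R, had an average difference of 0.50 on the log2 scale, Drsl4 of 0.52 and AttD, an attacin without a signal peptide, of 0.42. CecB, of the same cluster, had no value farther than 0.1 from 0 in any library, and edin was alike. Such small values occur in 16.1% of all genes, and since levels are not part of the table they cannot be read as steady expression. Drsl5, a relative of drosomycin, had 0.26, and the Toll-dependent peptides Dso1 and Dso2 had 0.099 and 0.14. The median of the 17 genes was 0.14.

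Bomanins are short peptides that the Toll pathway induces, and all 12 listed genes were in the table. In none of them did both MEF2 RNAi libraries exceed both w1118 libraries as deposited, against 3.31% of all genes. On the all-gene scale 4 did so, against 9.45% of all genes. Their median average difference was 0.12 (log2), from -0.084 for BomS6 to 0.34 for BomT1. As deposited, all 12 had lower values in MEF2 RNAi flies than in w1118 flies when fed RU486, as did 12183 of 13012 genes. Their median was -0.20, where the median of all genes was -0.36. On the all-gene scale 10 of the 12 were higher in this comparison, as were 6084 of 13012 genes. Drs, at 0.20 in the average, lay within the range of the Bomanins.

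Genes for the signalling steps are listed by pathway. For 23 genes of the IMD pathway in the table the median average difference was 0.036 and no gene reached 1.5-fold in it. Both MEF2 RNAi libraries lay above both w1118 libraries in 3 of the 23 genes as deposited, against 3.31% of all genes. They were pirk, PGRP-LB and PGRP-LF, which are known as brakes on the pathway. On the all-gene scale 8 of the 23 did, against the 9.45% of all genes given above, and these also held key, Rel, casp, akirin and POSH. The intracellular inhibitor pirk had 0.37 without and 0.12 with RU486 in MEF2 RNAi flies, and -0.59 and 0.10 in w1118 flies. PGRP-LB, an amidase that degrades peptidoglycan, had 0.32 and 0.080, and -0.45 and 0.041. Their average differences were 0.49 and 0.40, and that of PGRP-LF was 0.31.

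Rel, which encodes the NF-kappaB factor Relish, had an average difference of 0.19, while the adaptor gene imd and the receptor gene PGRP-LC were not separated by genotype on either scale. Among 22 Toll pathway genes the median was 0.029 and the highest was 0.25 for spirit, a serine protease that acts upstream of Toll. None of the 22 had both MEF2 RNAi libraries above both w1118 libraries as deposited, against 3.31% of all genes. On the all-gene scale 3 did, against 9.45% of all genes. The receptor gene Tl had 0.086.

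Other inducible defence genes lay in between. TotM, TotA and TotC, stress-induced Turandot genes, had average differences of 0.45, 0.41 and 0.39, and Tep1, a thioester protein of the complement type, had 0.43. The medians of the 13 JAK-STAT and Turandot genes and of 7 thioester protein and transferrin genes were 0.061 and 0.15. No gene of either list reached 1.5-fold in the average. The strip plot of genotype differences shows that Listericin, at 0.72, was the highest listed gene outside the 10.

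**Figure D4:**
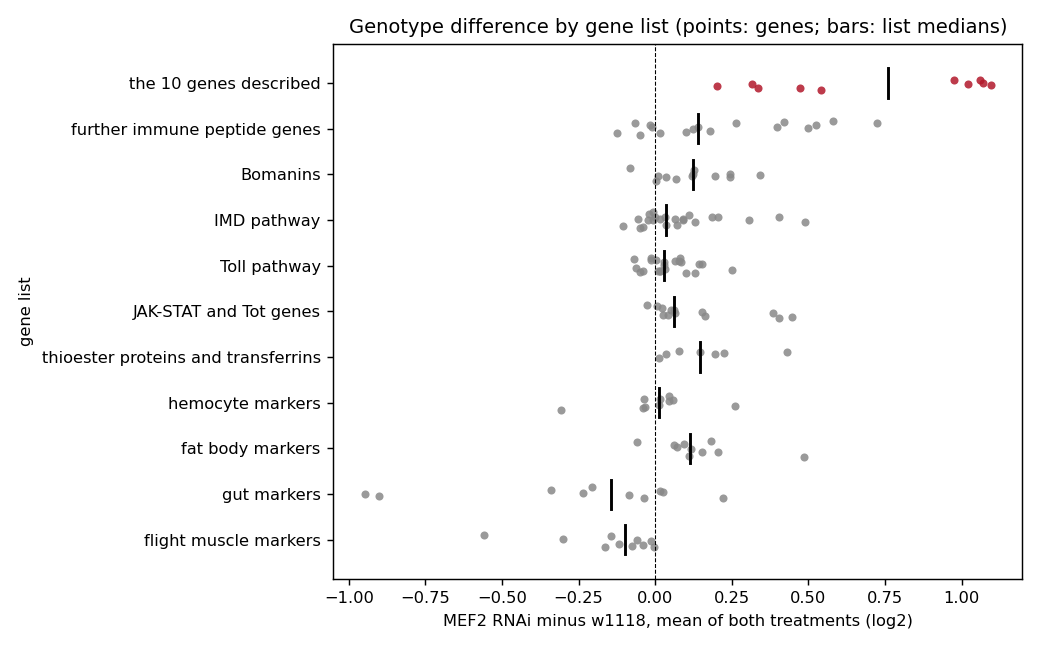
Average genotype difference (MEF2 RNAi minus w1118, mean of both treatments, log2, deposited scale) of each gene by list, with points for genes and black bars for list medians. The 10 antimicrobial peptide genes have a median of 0.76, the other lists have medians from -0.15 to 0.15, and 5 of the 10 genes lie at 0.98 or above.

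Markers of tissues that make these peptides were listed alongside. The 10 hemocyte markers had a median average difference of 0.014, with values from -0.31 (NimC1) to 0.26 (He). Of the 10 fat body markers, 9 were higher in MEF2 RNAi flies, as were 6808 of 13012 genes. Their median was 0.11, and Lsp2, a larval serum protein that adults still make, was highest at 0.49. Lsp2 had 0.79 in MEF2 RNAi flies without RU486 and -0.30, -0.13 and -0.36 in the other libraries. Among the MEF2 RNAi libraries it was above 0 only without RU486, and so were CecC, DptB, Drs and Mtk as deposited. AttA, AttB, AttC, CecA1, Def and Dro were above 0 in both. The 10 gut markers had a median of -0.15, with Jon99Fii, a digestive protease gene, at -0.95. Jon99Fii had 1.42 in w1118 flies with RU486 and values between -0.49 and -0.45 in the other libraries. The 10 flight muscle markers had a median of -0.098, and all 10 were lower in MEF2 RNAi flies, as were 6204 of 13012 genes. None of the fat body or hemocyte markers reached 1.5-fold in the average. In the separate contrasts as deposited, however, fat body markers also passed the limits. Without RU486, 7 of the 10 were at least 1.5-fold higher in MEF2 RNAi flies against 6.00% of all genes. Their median was 0.63 on the log2 scale (0.38 for all genes), with 2.22-fold for Lsp2. On the all-gene scale 1 of 10 passed, against 0.246% of all genes. With RU486 in MEF2 RNAi flies their median difference was -0.58, next to -0.57 for the peptide genes and -0.38 for all genes. At or below 0.65-fold were 3 of 10, against 6.99% of all genes. On the all-gene scale 2 of 10 fat body markers were, against 0.438% of all genes, and 0 of the 10 peptide genes were. With RU486 the genotype difference of the fat body markers had a median of -0.45, near the -0.36 of all genes, where the peptide genes had 0.47. None of the 10 hemocyte markers passed 1.5-fold without RU486, with a median of 0.45 (0.38 for all genes). The part of these tissues in the antimicrobial peptide result was not tested. Because the values are centred, whether a marker is present or absent in the thorax cannot be read from them.

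The genes outside the lists whose 4 values lay nearest to the median profile of the 10 genes were CG4757, CG42821, GluRIIC, CG11893 and CG32581, at Euclidean distances of 0.14, 0.17, 0.17, 0.19 and 0.19 on the log2 scale over the 4 libraries. The median profile itself was 0.61 and 0.14 in MEF2 RNAi flies without and with RU486, and -0.53 and -0.29 in the corresponding w1118 flies. Listericin was nearer than any of them, at 0.11. GluRIIC, a glutamate receptor subunit of the neuromuscular junction, had 0.73 and 0.22 in MEF2 RNAi flies and -0.63 and -0.32 in w1118 flies. The same order of the 4 libraries was thus also found outside the immune lists. With 1 library per condition, the genotype, the flies pooled for each library and anything else that differed between the crosses cannot be told apart.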

How the data were processed

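RNA-seq libraries (TruSeq Stranded Total RNA kit, per the labels) were made from 8 thoraces for each of the 4 conditions. What the authors deposited is 1 table with 13012 genes in log2 units, centred per gene (each row sums to 0 within 7e-15). The aligner, counter, genome build and scaling between libraries are not given in the sources used here, and depth is unknown, so no interval is given. Differences between libraries were computed from the log2 values, and folds as 2 to their power. Limits of 1.5 and 0.65 are those of the paper's legends. With 1 library per condition nothing was tested, and counts are read against all genes. Alternatives were subtraction of a library's median over the whole table or over 85 ribosomal protein genes, other member lists, and limits of 2 and 0.5. The named genes are the 10 members, listed genes, Mef2 and the 5 genes nearest to the median profile. Members and lists were chosen with earlier results of these data known. Of 150 listed genes 144 were in the table, 20 by an older name or locus tag in RefSeq, while Anp, Drsl1, Drsl3, Drsl6, sphe and TotZ were not matched. No sequences were used here. The calculations used Python 3.11.15, numpy 2.4.6, pandas 2.3.3 and matplotlib 3.10.9, and the code was tested on simulated data.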

Additional observations from a re-analysis of the deposited data

Results flagged for a closer look

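On the deposited scale the log2 difference with RU486 had opposite signs in the genotypes for all 10 genes, lower in MEF2 RNAi flies and higher in w1118 flies. Most of the table did so too: of 13012 genes, 11564 were lower in MEF2 RNAi flies and 12113 higher in w1118 flies. On the all-gene scale only DptB, Drs and Mtk kept these signs. The difference between the genotypes was -0.90 for AttA, -0.50 for AttB, -0.99 for AttC, -0.17 for CecA1, -1.10 for CecC, -0.39 for Def, -1.26 for DptB, -1.06 for Dro, -0.83 for Drs and -0.98 for Mtk. For CecA1 the w1118 value was only 0.0007. None of these differences was tested, since each condition has 1 library, and the median of all genes in the same measure was -0.78.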

How the results depend on the processing

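No paired analysis was possible because there is only 1 library for every genotype and treatment. The average genotype difference moved least with scaling, with a median of 0.76 as deposited, 0.75 on the all-gene scale and 0.69 on the scale of 85 ribosomal protein genes. On the all-gene scale the median RU486 difference was -0.20 in MEF2 RNAi flies (0 genes at the limit) and -0.049 in w1118 flies, the median genotype difference was 0.75 without RU486 (6 genes) and 0.82 with it (6 genes), the genotypes' RU486 differences differed by -0.23 (0 genes), and 10 genes had both MEF2 RNAi libraries on top. On the ribosomal protein scale these were -0.099 (0 genes), -0.19, 0.56 (5 genes), 0.88 (6 genes), 0.019 (0 genes, the sign turned) and 10 genes, where of 13012 genes 19 passed without RU486, 214 passed with it and 467 had both MEF2 RNAi libraries on top. Without AttA, AttB, CecA1 and CecC, whose copies may share reads, 6 genes passed without RU486, 1 passed with RU486 at a median of 0.23, 3 passed in the average, and 3 had both MEF2 RNAi libraries on top. With the further peptide genes, 27 in all, the median RU486 difference in MEF2 RNAi flies was -0.30, the genotype medians were 0.74 (16 genes) and -0.015, the difference of RU486 differences was -0.66 (15 genes), the average was 0.33, and 12 genes had both MEF2 RNAi libraries on top. For both of these member lists the shares of all genes were 6.00% without RU486, 0.599% with it and 0.338% in the average. They were 63.5% for the difference of RU486 differences and 3.31% for both MEF2 RNAi libraries on top. Limits of 2 and 0.5 left 0 genes for RU486 in MEF2 RNAi flies, 5 for genotype without RU486, 0 with RU486, and 3 for the difference of RU486 differences. The share of all genes past limits of 2 and 0.5 was not counted, so these counts have no background beside them. The cause of these moves with the scale was not tested. Depth and level are unknown, so that the precision of no value can be given.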
